A study of Mus musculus with 8 samples.

Results

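The genes described here are 45 genes of DNA replication and S phase, chosen by name, out of 42416 gene identifiers with read counts in distal convoluted tubules of the mouse kidney. They comprise 11 genes of origin licensing, 7 of helicase activation, 7 of DNA polymerases and primase, 7 of the sliding clamp and lagging strand, 4 of nucleotide supply, 4 of chromatin copying and 5 of G1/S control. RNA was sequenced from 4 KO libraries and 4 Control libraries. KO mice carried the floxed allele on both copies (Cnb1fl Tg/Tg) and Control mice on neither (Cnb1fl wt). Cnb1 is another name of Ppp3r1, which encodes a regulatory subunit that the phosphatase calcineurin needs for activity. Mice of both groups carried NCCcre Tg/+, a Cre named after NCC, the NaCl cotransporter typical of distal convoluted tubules, and the reporter TOMATO Tg/+, and all received a daily gavage of 2 mg tamoxifen on 5 days, with tubules taken 3 weeks later. For each library, a Biosorter (a flow sorter for large particles) delivered 1000 fragments of tubule, and the labels give neither age nor sex. The comparison addresses the part of this phosphatase in the distal convoluted tubule, in a study on side effects of calcineurin inhibitors in the kidney.

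Before a cell divides it loads the MCM helicase on origins of replication, a step called licensing that needs the origin recognition complex, Cdc6 and Cdt1. At the start of S phase the helicase is activated by Cdc45 and the GINS complex, and polymerases, a sliding clamp and a supply of deoxynucleotides then carry the forks along. Transcription of many of these genes is held low in resting cells by retinoblastoma family proteins and is switched on by E2F transcription factors as cells pass from G1 into S phase. Cells of the mature distal convoluted tubule are mostly resting, although this segment can proliferate when its transport load rises.

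Many of the genes share a promoter element, which is shown here because it is the known binding sequence of the E2F factors. An E2F-type match was TTGGCGC or one of its variants (namely TTCCCGC, also TTCGCGC, and lastly TTGCCGC) on either strand, within 250 bases before to 50 bases after the annotated start. RefSeq promoters (GRCm38.p6) were found for 36 of the 45 genes, and 25 of the 36 (69.4%) held a match, against 10.9% of the 27025 genes in the promoter table and 19.0% of the 10683 genes with promoters that had at least 10 counts in at least 4 libraries. The following 90-base stretches before the RefSeq start, from 5′ to 3′ on the strand of the gene, have the matches in capitals. Gene coordinates given below come from another annotation, GENCODE, whose starts can differ. By those coordinates the Cdc6 stretch and the last bases of the Uhrf1 stretch lie inside the gene. The first 5 belong to genes that were higher in KO, and the last pair, Rrm1 and Chaf1a, did not pass the threshold.
Mcm6 (chr1:128359734-128359823, minus strand): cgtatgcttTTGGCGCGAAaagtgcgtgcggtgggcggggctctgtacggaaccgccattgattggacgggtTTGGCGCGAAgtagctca
Mcm5 (chr8:75109311-75109400, plus strand): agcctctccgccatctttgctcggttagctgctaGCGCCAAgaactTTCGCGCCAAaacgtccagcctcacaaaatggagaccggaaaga
Cdc6 (chr11:98907971-98908060, plus strand): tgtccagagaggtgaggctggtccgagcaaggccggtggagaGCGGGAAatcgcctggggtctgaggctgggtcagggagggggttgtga
Rrm2 (chr12:24708004-24708093, plus strand): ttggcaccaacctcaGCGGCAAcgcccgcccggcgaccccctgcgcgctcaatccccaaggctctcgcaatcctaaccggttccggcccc
Uhrf1 (chr17:56303247-56303336, plus strand): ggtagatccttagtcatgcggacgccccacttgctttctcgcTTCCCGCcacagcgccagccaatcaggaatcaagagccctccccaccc
Rrm1 (chr7:102441586-102441675, plus strand): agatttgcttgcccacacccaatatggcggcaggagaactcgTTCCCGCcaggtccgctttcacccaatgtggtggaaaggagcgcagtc
Chaf1a (chr17:56040323-56040412, plus strand): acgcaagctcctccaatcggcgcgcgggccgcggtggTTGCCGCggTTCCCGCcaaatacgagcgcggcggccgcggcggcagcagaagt
In Mcm6 a pair of overlapping matches on opposite strands stood at 2 places, giving 4 matches in the stretch shown. Mcm5 held 3 matches there and Chaf1a held 2. Rrm1 and Rrm2, which encode the subunits of the same enzyme, each held 1 match, so a match was present on both sides of the threshold. Of the genes past the threshold with a promoter sequence, 8 of 9 (88.9%) held a match, and of the other genes 17 of 27 (63.0%) did. In the bases before the start alone, from which the printed stretches come, the match was in 5 of 9 (55.6%) and 12 of 27 (44.4%), and in 17 of all 36 (47.2%), against 15.97% of the genes with counts. These groups are small, and the matches are letters in a window and were not measured for binding.

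A list of 20 mitotic genes was searched for another element. The cell cycle genes homology region (CHR), searched as TTTGAA on either strand, is the known element of genes that peak in mitosis. It occurred in 12 of the 17 (70.6%) mitotic genes with a promoter sequence, in 0 of 9 promoters of the replication genes past the threshold and in 7 of 27 (25.9%) of the other replication genes, against 14.3% of the genes with counts. In the bases before the start alone the CHR was in 6 of 17 (35.3%) mitotic promoters, 0 of 9 and 7 of 27, against 12.8% of the genes with counts. The shares of the lists were not tested against each other. The E2F-type match occurred in 3 of 17 (17.6%) mitotic promoters. The CCAAT box, searched as CCAAT on either strand, occurred in 22 of 36 (61.1%) replication promoters and 13 of 17 (76.5%) mitotic promoters, against 42.8% of the genes with counts.

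**Figure D1:**
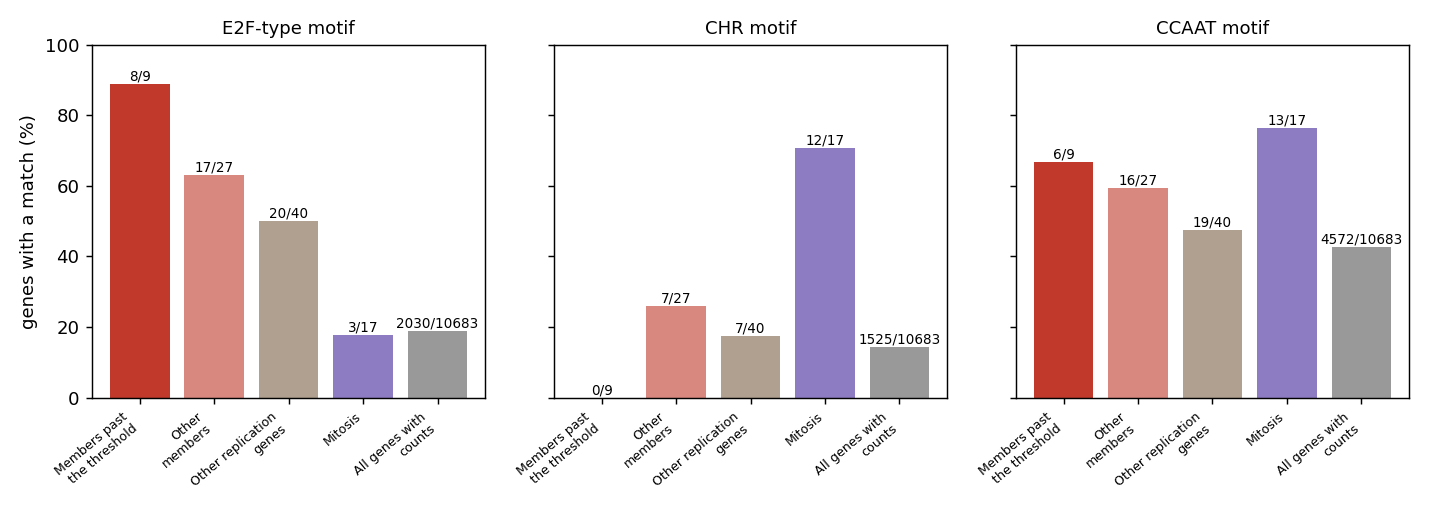
Share of genes, in percent, whose promoter window holds an E2F-type, CHR or CCAAT match, for members past the threshold, other members, other replication genes, mitotic genes and all genes with counts; the numbers over the bars are genes with a match over genes with a promoter. The E2F-type match was in 8 of 9 members past the threshold and 3 of 17 mitotic genes, and the CHR match in 0 of 9 and 12 of 17.

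Total counts ranged from 18161442 to 45150953 in KO and from 19911826 to 42389558 in Control, and mitochondrially encoded genes took 13.37% to 18.4% of counts in KO and 17.03% to 19.1% in Control. Replicate numbers only name the libraries in order of deposit. The targeted gene Ppp3r1 (ENSMUSG00000033953) stood at 80.7, 74.0, 97.7 and 92.5 CPM in KO and at 108, 97.4, 99.8 and 84.4 CPM in Control, with overlap between the groups. CPM is the count scaled to a common library total after TMM adjustment. The counts cover the whole gene and no source used here names the floxed exons, so the groups rest on the deposited labels. The distal convoluted tubule marker Slc12a3 was at 5120.1 ± 1988 CPM in KO and 6783 ± 1045 CPM in Control (SD, n = 4 each). It had 8074, 4521, 3911 and 3975 CPM in KO replicates 1 to 4, where the Control libraries had 5651 to 8049 CPM. Of the 8 markers of this segment, 4 fell (0.876% of all genes) and 1 rose (1.34%). Pvalb, which marks its early part, averaged 1.89 CPM in KO and 508 CPM in Control. In bulk libraries of this kind, a change in the number of cells in a phase of the cycle and a change in RNA per cell cannot be told apart. The labels give each library its own number and do not say more on how the animals were related, so p-values measure the spread between these libraries.

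A subset of the replication genes was higher in KO, from low levels. Of the 43 genes that passed the filter on low counts, 10 rose (Cdc6, Mcm3, Mcm4, Mcm5, Mcm6, Clspn, Lig1, Rrm2, Uhrf1 and E2f1), 0 fell and 33 did not pass by edgeR's quasi-likelihood test at an adjusted p under 0.05. Over all 14268 genes tested, 2.21% were called, 1.34% as higher and 0.876% as lower. At an unadjusted p under 0.05, 28 of the 43 were higher (7.79% of all genes) and 0 lower (6.15% of all genes). DESeq2, which was run without that filter, called 14 of the 45 members higher (2.64% of all genes), namely the same 10 with Gins2, Pole, Chaf1a and E2f8, and limma-voom 11 (2.00% of all genes), and each called 0 lower. In 42 of the 43 genes the log2 fold change was above 0, against 47.1% of all genes, and the median was 0.57 against -0.02. Without any filter all 45 genes were tested, the same 10 rose against 0.977% of all genes, and the median was 0.62 against -0.04. Orc1 and E2f8 did not pass the filter, and Cdc6 passed it with all 4 KO libraries and 0 Control libraries over its level. Clspn passed it with 4 KO libraries and 1 Control library, and Pole2 and Ccne1 with 4 KO and 3 Control libraries each. The fold changes of the members were largest in Clspn (2.67), Cdc6 (2.09), Rrm2 (1.78), E2f1 and Ccne1 (1.64 each) and Mcm3 (1.56), and the only one below 0 was Gins3 (-0.28).

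The 4 KO libraries lay above all 4 Control libraries in 20 of the 43 genes, against 5.61% of all genes, and below them in 0 genes, against 3.83%. The count of genes that rose was 1 without KO replicate 2 (0.104% of all genes), 3 without KO replicate 4 (0.364%), 3 when Control replicate 2 was left out (0.485%), 2 for Control replicate 3 (0.302%) and 1 for Control replicate 4 (0.124%). It was 10 with library totals as the scaling (1.70% of all genes) and 0 (0.0350%) with a block for the shared first digits of the library numbers, which leaves out Control replicate 4 in effect because no other library shares its digits. The median log2 fold change stayed between 0.52 and 0.75 in every such fit. Rrm2 was the single gene that kept its call without KO replicate 2 and without Control replicate 4.

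**Figure D2:**
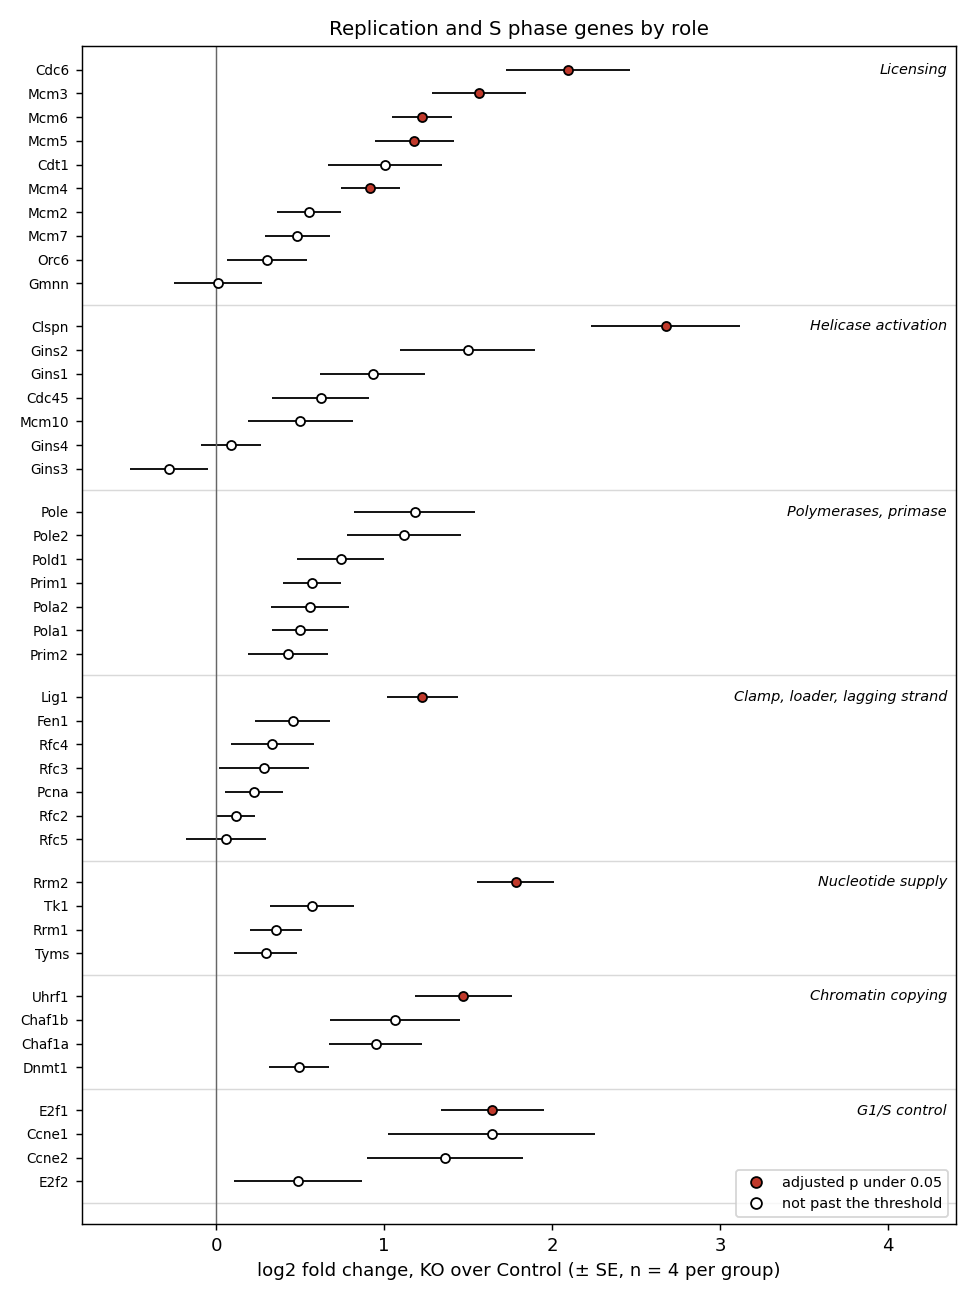
Log2 fold change of each tested gene, KO over Control, with approximate standard errors (n = 4 libraries per group), grouped by role and sorted within each; filled points passed an adjusted p of 0.05. The 10 filled points lie between 0.92 (Mcm4) and 2.67 (Clspn), and Gins3 at -0.28 is the only point left of 0.

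Of the 10 tested licensing genes, 5 rose, against 1.34% of all genes, and they made up 5 of the 10 calls. Mcm6 (chromosome 1, 128331590 to 128359664, minus strand, GRCm38), a subunit of the MCM2 to MCM7 ring that unwinds DNA, had 19.3, 28.4, 24.2 and 33.7 CPM in KO replicates 1 to 4, against 12.1, 10.4, 12.7 and 9.92 CPM in Control replicates 1 to 4. Every KO library was above every Control library, with a log2 ratio of 1.23 ± 0.18 (SE over 4 libraries a group, adjusted p = 0.0142 by edgeR). Cdc6 (chromosome 11, 98907801 to 98923940, plus strand), the ATPase that loads the ring on origins, had 1.07, 2.00, 0.984 and 1.503 CPM in KO, against 0.390, 0.289, 0.261 and 0.351 CPM in Control. These levels rest on 25 to 52 counts per KO library and 5 to 12 per Control library, and the groups did not overlap (log2 2.09 ± 0.37, adjusted p = 0.0227).

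Further subunits of the ring rose with Mcm6. Mcm3 had 4.34, 5.71, 4.997 and 7.42 CPM in KO, against 2.29, 1.203, 1.93 and 2.21 CPM in Control (log2 1.56 ± 0.28, adjusted p = 0.0228). Mcm4 had 9.69, 10.6, 12.4 and 13.9 CPM in KO, against 7.02, 6.59, 6.01 and 4.96 CPM in Control (log2 0.92 ± 0.18, adjusted p = 0.0316). Mcm5 averaged 8.89 ± 2.89 CPM in KO and 3.90 ± 0.271 CPM in Control (SD, n = 4 each; log2 1.18, adjusted p = 0.0361). In all 3 the groups did not overlap, and KO replicate 4 was the highest library. The remaining subunits did not pass: Mcm2 had a log2 fold change of 0.55 ± 0.19 and Mcm7, whose exons overlap the more abundant Cops6 on the opposite strand, had 0.48 ± 0.19, and their groups overlapped. The ratio of Mcm6 to Mcm7 counts within a library, which no scaling changes, was 1.51, 1.62, 1.73 and 1.78 in KO, against 0.877, 1.12, 1.38 and 0.770 in Control.

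The other licensing genes did not pass. Cdt1, which brings the ring to origins, was at 1.01 ± 0.34 on the log2 scale (adjusted p = 0.21) with groups that did not overlap, and Orc6, a subunit of the origin recognition complex, had 0.30 ± 0.24. Geminin (Gmnn), the inhibitor of Cdt1, had 0.01 ± 0.26. It stood at 19.0, 24.2, 18.7 and 21.0 CPM in KO, against 34.8, 14.4, 17.8 and 15.5 CPM in Control, so that Control replicate 1 was the highest of all libraries, and without that library its log2 fold change was 0.38. Orc1, the largest subunit of the recognition complex, was near the limit of counting, with 3 to 6 counts in each KO library and 1 to 4 in each Control library.

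**Figure D3:**
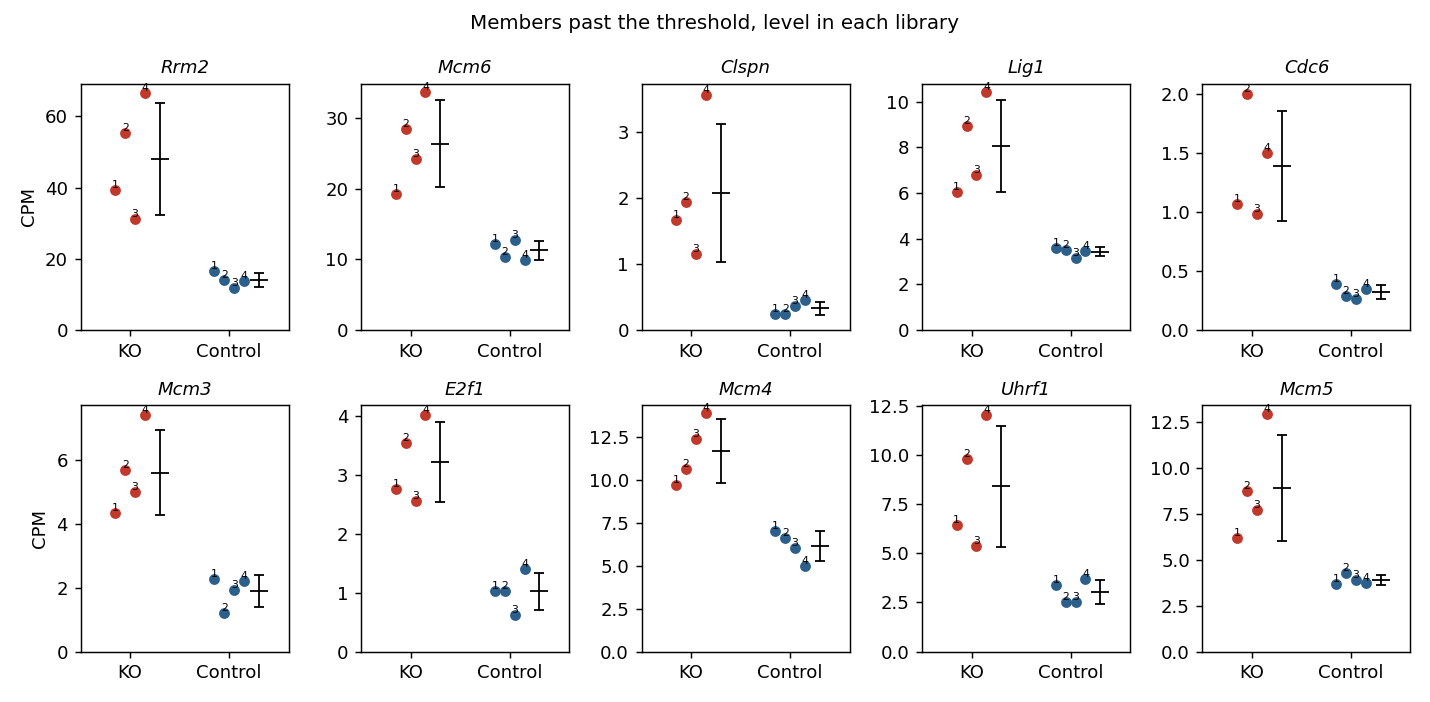
CPM of the 10 genes that rose, in each library (points, numbered by replicate), with the mean and SD of each group beside them (n = 4 per group; each panel has its own linear axis from 0). In every panel the KO points lie above the Control points, and KO replicate 4 or 2 is the highest.

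Among the 7 genes grouped under helicase activation, Clspn, a gene of the fork, was the one that rose. The genes that turn the loaded ring into a moving helicase (Cdc45, the GINS subunits and Mcm10) did not pass by edgeR. Claspin (Clspn, chromosome 4, 126556935 to 126593903, plus strand), which couples the fork to the checkpoint kinase CHK1, had 1.67, 1.93, 1.14 and 3.56 CPM in KO, against 0.244, 0.241, 0.366 and 0.451 CPM in Control. Its log2 fold change was 2.67 ± 0.44 (adjusted p = 0.019), from 29 to 81 counts per KO library and 5 to 10 per Control library. The 4 GINS subunits did not pass, and differences among them were not tested: the log2 ratio was 1.496 ± 0.40 in Gins2 (adjusted p = 0.11) and 0.93 ± 0.31 in Gins1, both with groups that did not overlap, whereas Gins4 had 0.09 ± 0.18 and Gins3 had -0.28 ± 0.23. Gins2 passed by DESeq2 (adjusted p = 0.00618) and by limma-voom (adjusted p = 0.0211), and its exons overlap the more abundant Gse1 on the opposite strand. The ratio of Gins2 to Gins4 counts was 0.198, 0.281, 0.138 and 0.297 in KO, against 0.108, 0.0838, 0.0404 and 0.108 in Control. Cdc45, the third component of the active helicase, had a log2 fold change of 0.62 ± 0.29 and Mcm10, which acts in helicase activation, had 0.50 ± 0.31, without passing.

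The 7 genes of DNA polymerases and primase did not pass by edgeR, and all had log2 fold changes above 0. By DESeq2 1 of them passed (Pole, adjusted p = 0.0493) and by limma-voom 0 did. By edgeR, 6 of the 7 had an unadjusted p under 0.05 in the higher direction (7.79% of all genes). The log2 fold changes of all 7 lay between 0.43 and 1.18. Pole, the catalytic subunit of the leading-strand polymerase epsilon, had 1.77, 1.58, 1.61 and 2.46 CPM in KO, against 0.536, 1.03, 1.15 and 0.501 CPM in Control (log2 1.18 ± 0.36, adjusted p = 0.16). Its partner Pole2, which shares exon sequence on the same strand with a predicted gene of more counts, had 0.761, 1.39, 1.14 and 1.25 CPM in KO, against 0.488, 0.505, 0.679 and 0.401 CPM in Control (log2 1.12 ± 0.34, adjusted p = 0.161). The groups did not overlap in either gene. Pold1, the catalytic subunit of polymerase delta, had a log2 fold change of 0.74 ± 0.26. The subunits of the primase complex that start each strand, Prim1, Pola2, Pola1 and Prim2, had 0.57, 0.56, 0.50 and 0.43.

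Among the 7 roles, the sliding clamp, its loader and the lagging strand had the lowest median log2 fold change (0.28). Pcna, the clamp that tethers polymerases to DNA, was among the most abundant of the 45 genes, with 29.0, 35.7, 32.3 and 43.3 CPM in KO, against 39.4, 27.8, 27.6 and 25.2 CPM in Control, and the groups overlapped (log2 0.22 ± 0.17, adjusted p = 0.576). The loader subunits Rfc2, Rfc3, Rfc4 and Rfc5 had log2 fold changes of 0.12, 0.28, 0.33 and 0.06. The last of these was -0.086 with the block for library number. Lig1 (chromosome 7, 13277283 to 13311433, plus strand), the ligase that seals Okazaki fragments, rose in the same list. It had 6.05, 8.95, 6.77 and 10.4 CPM in KO, against 3.61, 3.49, 3.14 and 3.46 CPM in Control (log2 1.23 ± 0.21, adjusted p = 0.0214), and its groups did not overlap. Its exons overlap those of Zswim9 on the opposite strand over 247 bases, and Zswim9 held 142% as many counts. Fen1, the nuclease that trims the fragments before ligation, had 0.45 ± 0.22 without passing, and the ratio of Lig1 to Fen1 counts was 1.16, 1.92, 1.37 and 1.55 in KO, against 0.692, 1.06, 0.909 and 0.920 in Control.

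Rrm2 had the smallest p of all 45 genes. It encodes the small, cell cycle-regulated subunit of ribonucleotide reductase, the enzyme that makes deoxynucleotides, and lies on chromosome 12 (24708241 to 24714146, plus strand). It had 39.4, 55.3, 31.2 and 66.5 CPM in KO, against 16.4, 14.1, 11.7 and 13.6 CPM in Control. The lowest KO library was above the highest Control library, and the log2 fold change was 1.78 ± 0.23 (adjusted p = 0.00874), between 1.59 and 1.94 over the other settings. Rrm1, the large subunit of the same enzyme, had 22.1, 27.7, 24.3 and 34.4 CPM in KO, against 25.0, 19.3, 20.01 and 20.3 CPM in Control, and did not pass (log2 0.36 ± 0.16, adjusted p = 0.346). The ratio of Rrm2 to Rrm1 counts within a library was 1.78, 2.00, 1.28 and 1.93 in KO, against 0.658, 0.730, 0.582 and 0.672 in Control. The 4 within-library ratios given here were chosen after the values were seen. Tk1 and Tyms, which make thymidylate by salvage and by synthesis, had log2 fold changes of 0.57 and 0.29 and did not pass.

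**Figure D4:**
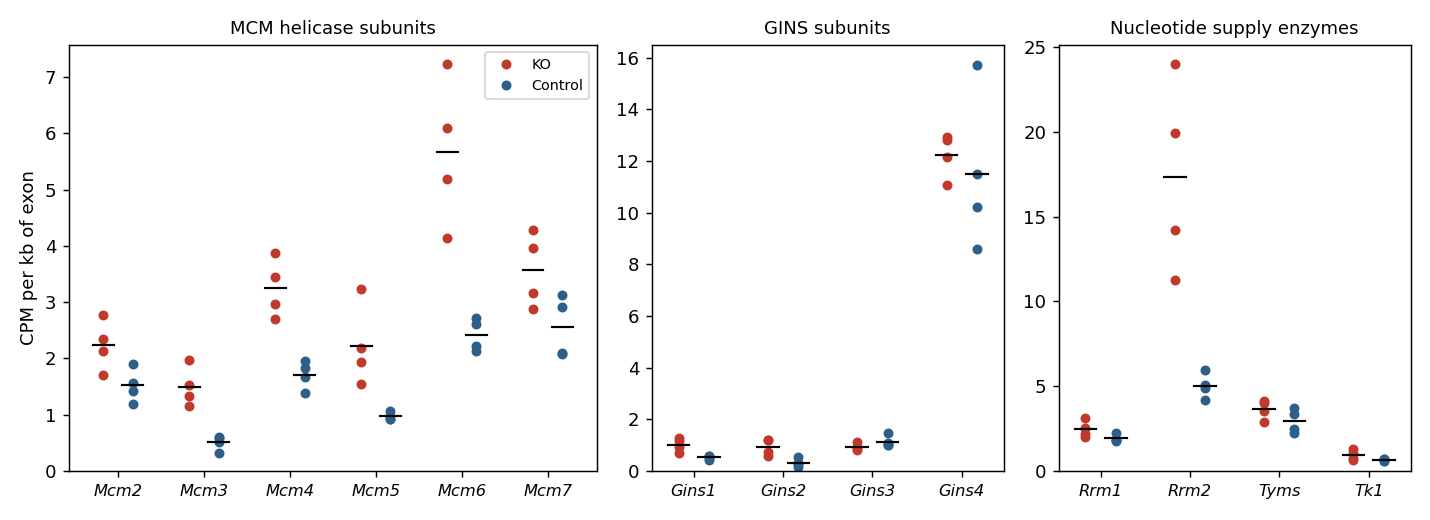
Level per exon length (CPM per kb of exon, linear axes from 0) of the MCM2 to MCM7 subunits, the GINS subunits and the nucleotide supply enzymes in each library, with bars at the group means (n = 4 per group). Rrm2 stands at 17.4 in KO and 5.04 in Control, and Gins4 at 12.2 and 11.5.

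Per exon length, the most abundant genes in KO were Rrm2 (17.4 CPM per kb), Pcna (14.6), Gmnn (14.2) and Gins4 (12.2), and in Control Gmnn (14.1), Pcna (12.5), Gins4 (11.5) and Rrm2 (5.04). In KO the ranges of all 4 overlapped (11.3 to 23.98 in Rrm2, 12.1 to 18.0 in Pcna, 12.8 to 16.5 in Gmnn and 11.1 to 12.9 in Gins4), so their order is not resolved. In Control those of Gmnn, Pcna and Gins4 overlapped, and Rrm2 (4.21 to 5.93) lay below the other 3. At the low end were Orc1, with 0.0556 CPM per kb in KO and 0.0248 in Control, and E2f8, with 0.170 in KO and 0.0286 in Control. Of the 45 genes, 2 averaged under 1 CPM in KO and 10 in Control, and 12 averaged at least 10 CPM in KO and 11 in Control. Within the MCM ring the level per length in KO ranged from 1.497 (Mcm3) to 5.66 (Mcm6), and in Control from 0.509 (Mcm3) to 2.55 (Mcm7).

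Of the genes that copy chromatin behind the fork, Uhrf1 rose. Uhrf1 (chromosome 17, 56303321 to 56323486, plus strand) recognises hemimethylated DNA and recruits the methyltransferase DNMT1. It had 6.44, 9.79, 5.35 and 12.03 CPM in KO, against 3.36, 2.53, 2.51 and 3.71 CPM in Control (log2 1.47 ± 0.29, adjusted p = 0.0325), with no overlap between the groups. Dnmt1 itself had 0.49 ± 0.18 and its groups overlapped. Chaf1a and Chaf1b, subunits of the chromatin assembly factor that places new histones, had 0.95 ± 0.28 and 1.07 ± 0.39 with groups that did not overlap, and neither passed. Chaf1a, which overlaps Ubxn6 on the opposite strand, passed by DESeq2 (adjusted p = 0.0259).

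Of the G1/S regulators, E2f1 rose. E2f1 (chromosome 2, 154559407 to 154569892, minus strand), an activator E2F that is itself induced at the G1/S transition, had 2.76, 3.55, 2.56 and 4.01 CPM in KO, against 1.02, 1.03, 0.627 and 1.40 CPM in Control (log2 1.64 ± 0.31, adjusted p = 0.0275). All KO libraries lay above all Control libraries. The E-type cyclins that activate CDK2 did not pass: Ccne1 had a log2 fold change of 1.64 ± 0.62 and Ccne2 1.36 ± 0.46, and both overlapped between groups. E2f2, another activator, had 0.49 ± 0.38, and without KO replicate 4, which held 4.91 CPM where the rest of its group held 1.52 to 2.31 CPM, it had 0.023. E2f8, a repressor E2F, had 7 to 38 counts per KO library and 2 to 9 per Control library. Without the filter its log2 fold change was 2.47 ± 0.65 by edgeR (adjusted p = 0.0902), which did not pass, and by DESeq2 it was 2.51 (adjusted p = 0.0173), which passed.

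The libraries of a group were not alike. Summed over the 45 genes, the level was 364, 454, 381 and 535 CPM in KO replicates 1 to 4, against 344, 261, 275 and 273 CPM in Control replicates 1 to 4, with means of 433 ± 78.1 in KO and 288 ± 37.7 in Control (SD, n = 4 each). KO replicate 4 was the highest KO library in 32 of the 43 tested genes and KO replicate 1 the lowest in 24, and Control replicate 1 was the highest Control library in 21. Between libraries whose file names carried an index sequence, KO replicate 1 and Control replicate 2, the ratio of summed levels was 1.40, and among the remaining 3 KO and 3 Control libraries it was 1.54. By the first digits of the library number, it was 1.06 between KO replicate 1 and Control replicate 1, and 1.71 between the other 3 KO libraries and Control replicates 2 and 3. In that last set the KO mean was above the Control mean in 42 of the 43 genes, against 53.0% of all genes. Between the replicates numbered 1 the KO library was higher in 29 of the 43, against 50.8% of all genes.

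**Figure D5:**
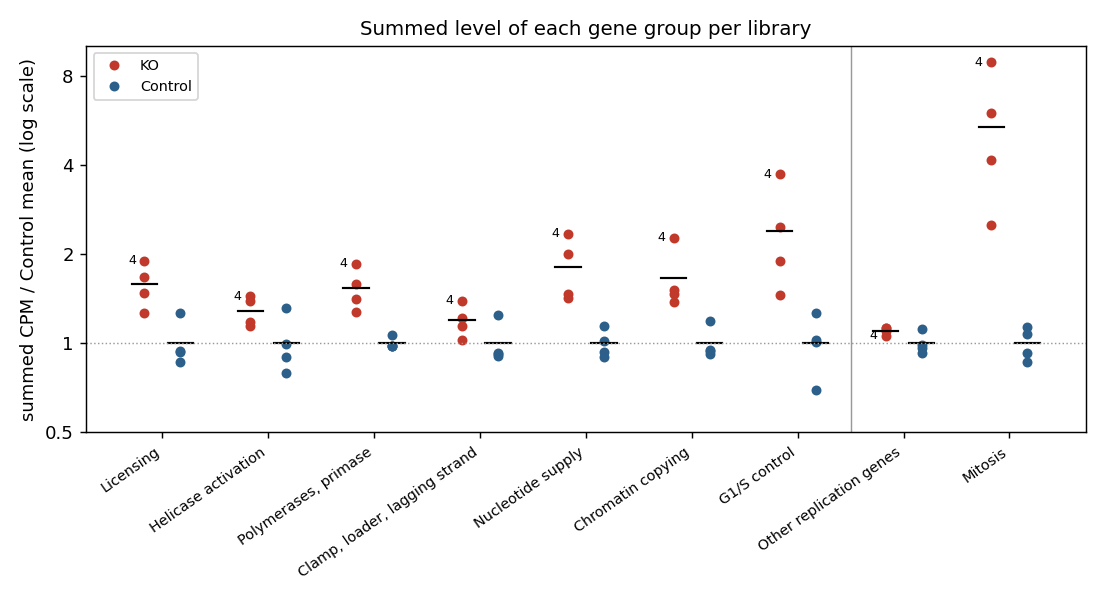
Summed CPM of each gene group in each library, divided by the mean of the Control libraries (log axis); bars are group means of the plotted ratios (n = 4 per group), and 4 marks KO replicate 4. Left of the vertical line, the KO means range from 1.195 (clamp and lagging strand) to 2.39 (G1/S control), and right of it the other replication genes stand at 1.10 and the mitotic genes at 5.403. In the sum of the other replication genes, the single gene Shmt1 holds 301 of 1083 CPM in KO and 261 of 981 CPM in Control (means).

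In other replication genes, outside the 45, the median was closer to 0, a difference that was not tested. The remaining machinery included other origin recognition subunits, single-strand binding proteins, further polymerase subunits, fork protection and nucleotide enzymes. Of its 48 tested genes, 4 rose (1.34% of all genes), 0 fell (0.876%) and 44 did not pass, with a median log2 fold change of 0.17. The 4 were the histone chaperone Asf1b (2.14), the fork protection gene Timeless (1.29), the chromatin remodeller Hells (1.24) and deoxycytidine kinase, Dck (0.92). With those 4 included, 12 of the 48 were higher (7.79% of all genes) and 1 lower (6.15%) at an unadjusted p under 0.05 by edgeR. All KO libraries lay above all Control libraries in 10 of the 48 (5.61% of all genes). The origin recognition subunits Orc2, Orc3, Orc4 and Orc5 had 0.18, 0.12, 0.03 and -0.09, and the single-strand binding genes Rpa1, Rpa2 and Rpa3 had 0.21, 0.07 and -0.01. With library totals as the scaling, the median of all genes moved from -0.02 to 0.13 and that of the 45 genes to 0.72.

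Of 27 tested regulators of the G1/S transition, Ccna2 alone rose (2.62 ± 0.40, adjusted p = 0.0142), against 1.34% of all genes. It encodes cyclin A2, which acts in S phase and G2. The D-type cyclins, Ccnd1, Ccnd2 and Ccnd3, had 0.04, 0.09 and -0.08. With Ccna2 included, 6 of the 27 were higher (7.79% of all genes) and 2 lower (6.15%) at an unadjusted p under 0.05 by edgeR. Of 25 tested genes of the replication checkpoint and fork repair, 4 rose (1.34% of all genes) and 0 fell (0.876%). The 4 were the phosphatase Cdc25c (3.06), the recombination gene Rad54l (1.76), the repair gene Fanci (2.27) and Brca1 (1.75). With these included, 12 of the 25 were higher (7.79% of all genes) and 0 lower (6.15%) at an unadjusted p under 0.05. The 6 tested CDK inhibitors did not pass by edgeR. At an unadjusted p under 0.05, 2 of them were higher (7.79% of all genes) and 0 lower (6.15%). The smallest p belonged to Cdkn2b (2.08 ± 0.80) and Cdkn2c (0.39 ± 0.17).

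Of the 20 listed mitotic genes, 19 rose, against 1.34% of all genes. The mitotic genes had the smallest p in Mki67 (2.60), Top2a (2.54), Aurka (2.33) and Cdk1 (2.49). They had a median log2 fold change of 2.45, against 0.57 for the replication genes. Their summed level was 105, 151, 63.3 and 225 CPM in KO replicates 1 to 4, against 21.8, 23.3, 28.6 and 27.0 CPM in Control replicates 1 to 4. KO replicates 4 and 2 were the highest pair of libraries in both sums. The comparisons share the same libraries, and the difference between the lists was not tested. Over the 5 lists, 28 of the 126 tested genes rose, against 1.34% of all genes. These calls numbered 16, 2, 27 and 13 without KO replicates 1 to 4, each left out in turn. Without Control replicates 1 to 4 they numbered 14, 10, 7 and 2. Over all genes, the higher calls numbered 191. They numbered 102, 15, 257 and 53 without KO replicates 1 to 4. Without Control replicates 1 to 4 they numbered 94, 70, 44 and 18.

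Marker lists of other cells were summed in the same libraries. Over 10 leukocyte markers the sum was 79.0, 36.9, 27.0 and 50.02 CPM in KO replicates 1 to 4, against 17.9, 21.2, 24.8 and 20.7 CPM in Control replicates 1 to 4, without overlap. Of the 5 markers that were tested, 3 were higher (7.79% of all genes) and 0 lower (6.15%) at an unadjusted p under 0.05, and they did not pass. Csf1r, a macrophage receptor gene, had 72.2, 12.4, 13.3 and 32.8 CPM in KO, against 7.12, 6.01, 7.79 and 7.57 CPM in Control (log2 2.21, adjusted p = 0.064). Cd68, a lysosomal gene of macrophages, had 0.905, 2.62, 0.787 and 3.81 CPM in KO, against 0.536, 0.577, 0.418 and 0.501 CPM in Control (log2 1.96, adjusted p = 0.116). Ptprc, the pan-leukocyte gene CD45, had 2.51, 6.55, 3.46 and 10.9 CPM in KO, against 1.02, 1.997, 1.72 and 3.11 CPM in Control (log2 1.56, adjusted p = 0.172). Ptprc and Cd68 were highest in KO replicates 4 and 2, as was the sum of the replication genes, whereas Csf1r and with it the leukocyte sum was highest in KO replicate 1. Cd74 and Lyz2 had log2 fold changes of -0.73 and -0.22. The 5 markers that did not pass the filter on low counts (Adgre1, C1qa, Itgam, Cd3e and Cd79a) were under 1 CPM in every library, and each was at 0 in at least 1 library.

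Markers of the thick ascending limb, the upstream segment, summed to 2732 to 5450 CPM in KO and 7438 to 12194 CPM in Control. This sum was mostly Umod, which fell (log2 -1.19, adjusted p = 0.041 by edgeR). Slc12a1, Cldn10, Ptger3 and Nos1 overlapped between the groups and did not pass. Markers of the distal convoluted tubule summed to 7234 to 11004 CPM in KO and 12450 to 17153 CPM in Control. Markers of connecting tubule and principal cells summed to 157 to 375 CPM in KO and 353 to 606 CPM in Control. All 7 were lower at an unadjusted p under 0.05 (6.15% of all genes) without passing. Of 12 markers of injured tubule, 10 were tested and did not pass. At an unadjusted p under 0.05, 5 were higher (Krt8, Krt18, Krt7, Cd44 and Sox9, against 7.79% of all genes) and 1 lower (Clu, against 6.15%). The sum, mostly Spp1 and Clu, was 2745 to 4794 CPM in KO and 4699 to 6742 CPM in Control. The sums of proximal tubule, intercalated cell, endothelial, fibroblast and red blood cell markers overlapped between the groups. The part of any of these cells or states in the replication genes was not tested.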

How the data were processed

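Whole-number read counts per Ensembl gene were deposited by the authors for 8 libraries, as raw counts. The submitters' processing notes name STAR 2.7.4a, fastp 0.20.0, bcl2fastq 2.20 and build GRCm38.p6. Which program, annotation release and strand setting produced the counts is not given in the sources used here. Where genes overlap, in opposite orientation or (Pole2) in the same one, their reads therefore cannot be separated. Exons of 16 of the 45 genes overlap those of another, and for 14 the partner had more than 10% of the member's own count: Orc1, Orc6, Mcm7, Cdc45, Gins2, Pole2, Rfc4, Rfc5, Fen1, Lig1, Tk1, Chaf1a, Ccne2 and E2f8. Names and coordinates come from GENCODE vM21 (GRCm38), which names 42347 of the 42416 identifiers, and the others held 0.0199% of counts. No pair of the 28 pairs of libraries held identical counts.

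All genes passing edgeR's filterByExpr were fitted in edgeR 4.0.16 (R 4.3.3) with TMM scaling and genotype as the single factor, and compared by the two-sided quasi-likelihood F test with Benjamini-Hochberg adjustment at a threshold of 0.05. The script was tested on simulated data. Standard errors are approximate, taken as the log2 ratio over the root of F. Levels per length use the union of annotated exons. The alternatives were DESeq2 1.42.0, limma-voom (limma 3.58.1) with library quality weights, upper-quartile scaling, library totals, no filter, a filter of 1 CPM in 4 libraries, removal of mitochondrially encoded genes, a term for whether file names held an index, a block for the first digits of the library number, and leaving out each library.

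The members, gene lists and motifs were chosen with earlier results of these data known. By the rule for named genes, every member is accounted for, and values in each library are given in each role for up to 4 members past the threshold with the smallest p, or for the 2 with the smallest p where none passed. In each further list up to 4 genes past the threshold are named, or 2 where none passed. Gmnn, Pcna, Rrm1, the Orc, Rpa and D-type cyclin genes and the within-library ratios are additions to that rule.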

Additional observations from a re-analysis of the deposited data

Results flagged for a closer look

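In 3 of the 86 combinations of a tested gene and a group, 1 library stood apart from the other 3 of its group by Dixon's gap ratio at the 95% level, and chance gives about 1 in 20. In each of them the library was Control replicate 1. It held 34.8 CPM of Gmnn where the remaining Control libraries held 14.4 to 17.8 CPM, 25.0 CPM of Rrm1 against 19.3 to 20.3 CPM, and 1.27 CPM of Ccne2 against 0.451 to 0.575 CPM. The ratios were 0.834, 0.830 and 0.849.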

How the results depend on the processing

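No paired analysis was possible because the replicate numbers follow the order of deposit. The 10 genes that rose numbered 0 with the block for the first digits of the library number and from 1 to 10 when a library was left out; the block gave 5 higher and 24 lower genes in all and 1 call in the further lists. Over all genes the 191 higher and 125 lower calls became 439 and 315 by DESeq2, 105 higher with a term for file names with an index (15 calls in the further lists) and 233 lower by limma-voom, and from 15 to 257 higher and 21 to 131 lower without 1 library. The further lists held 28 calls, and from 2 to 27 without 1 library. Library totals gave 72.9% of calls as higher, against 60.4% with TMM, and the block 17.2%. The median log2 fold change of the members lay between 0.52 and 0.75 in all 17 alternatives, and the log2 ratio of summed levels between 0.47 and 0.68 without 1 library. Among the fold changes of single members, 657 kept direction and side of the threshold, 57 lost the call, 4 gained it and 10 changed sign. The sign changes were in Rfc5, at -0.016 by limma-voom, -0.086 with the block and from -0.032 to 0.229 without 1 library (below 0 without KO replicate 3, KO replicate 4 or Control replicate 4), in Gmnn, from -0.131 to 0.381 without 1 library (below 0 without KO replicate 2 or Control replicate 2, 3 or 4), and in Gins4, from -0.028 to 0.270 without 1 library (below 0 without Control replicate 4). The cause was not tested. Fits with fewer libraries have less power. Genes under about 1 CPM rest on few counts.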
